A study of Mus musculus with 10 samples.

Results

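The 10 outer segment disc structure genes Prph2, Rom1, Fscn2, Prom1, Cdhr1, Rp1, Rp1l1, Abca4, Tulp1 and Impg1 were followed in total retinal RNA of mice that carry the Cln3 delta ex7/8 mutation or are wild type, with and without bright light. They were chosen by name, for their part in the structure and upkeep of the discs, with earlier results of these data known. Each of the 10 was represented by 1 transcript cluster (the array's unit of measurement for a gene), among 19505 genes measured.

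The outer segment of a rod or cone is a modified cilium filled with a stack of flattened membrane discs. New discs form at its base as evaginations of the plasma membrane, and old discs are shed from its tip and taken up by the retinal pigment epithelium, so that the stack is renewed throughout life. Disc genes are needed for the curved disc rim, for the growth and release of new discs, for the microtubule axoneme along which discs are stacked, for transport into the outer segment, and for the matrix around it. Mutations in most of these genes cause inherited retinal degeneration in humans.

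Affymetrix Clariom S arrays were hybridised with 1 retinal RNA per array, and 5 groups held 2 arrays each, 10 in all. The groups were CLN3-deficient mice (Cln3 delta ex7/8, the deletion found in most patients with juvenile neuronal ceroid lipofuscinosis) with light plus Minocycline, CLN3-deficient mice with light plus NaCl (the vehicle), CLN3-deficient mice with no light, wild-type mice with high light, and wild-type mice with no light. The methods give mice of both sexes at 8 to 10 weeks of age, and place both genotypes on C57BL/6J with a light-sensitive Rpe65 variant (leucine) brought in from BALB/c, while in the labels the wild-type strain reads Balb/c. Minocycline, a tetracycline antibiotic that dampens microglial activation, was injected intraperitoneally every day at 45 mg/kg in 0.9% NaCl.

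High light is 15000 lux for 60 min after 16 h of dark adaptation. The labels of the light-exposed CLN3-deficient arrays give no dose, and the treatment protocol gives 10000 lux for 30 min for the minocycline study. Light in the 2 genotypes may therefore differ in dose. Only the light-exposed CLN3-deficient mice were injected, so injection cannot be told apart from light in that genotype. How many days after light the retinas were taken is not given here. The study asked whether light stress acts differently on CLN3-deficient and wild-type retinas, and what minocycline does after light.

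The values are log2 expression levels, so a difference of 1 is a 2-fold difference. Array medians lay between 7.135 and 7.25, and Pearson's r between the replicates of a group was 0.9886 to 0.9944, computed over transcript clusters that are not independent. The targeted gene Cln3 measured 10.18 and 9.40 with light and minocycline, 10.13 and 9.46 with light and vehicle, and 9.14 and 9.18 without light in CLN3-deficient retinas, against 10.25 and 10.48 in light-exposed and 10.72 and 10.30 in unexposed wild-type retinas. All 6 CLN3-deficient arrays were below all 4 wild-type arrays, and which exons the probes cover was not examined. Y-linked transcripts were present in both unexposed wild-type retinas, in both vehicle-injected retinas and in minocycline replicate 1, and were low in the other 5. Sex therefore cannot be told apart from light within a genotype. Nor can it be told apart from genotype in unexposed retinas, or after light with vehicle. It is balanced when the light effects of both genotypes are averaged. Unexposed wild-type replicate 2 stood apart from replicate 1: its mean over 12 reactive glia genes, relative to each gene's mean over the 10 arrays, was 0.393 against -1.672, and over 12 microglia genes 0.432 against -1.114.

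Most disc structure genes were lower after light in both genotypes. Averaged over CLN3-deficient (vehicle) and wild-type mice, 7 of the 10 genes fell and 0 rose, where 21.7% of all 19505 genes fell and 15.9% rose (limma, Benjamini-Hochberg adjusted p under 0.05). Fscn2 fell 4.81-fold, Rom1 2.2-fold, Rp1l1 2.12-fold, Prph2 1.74-fold, Cdhr1 1.57-fold, Tulp1 1.55-fold and Rp1 1.39-fold. The median change was -0.6425 on the log2 scale over the 10 genes and 0.0325 over all genes. In a total RNA measurement, fewer photoreceptors and less RNA per photoreceptor cannot be told apart. Because a group held 2 mice, p-values rest on few animals. In limma the spread of a gene is pooled over all groups and drawn toward that of all genes. It is therefore not the spread within the groups compared.

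**Figure D1:**
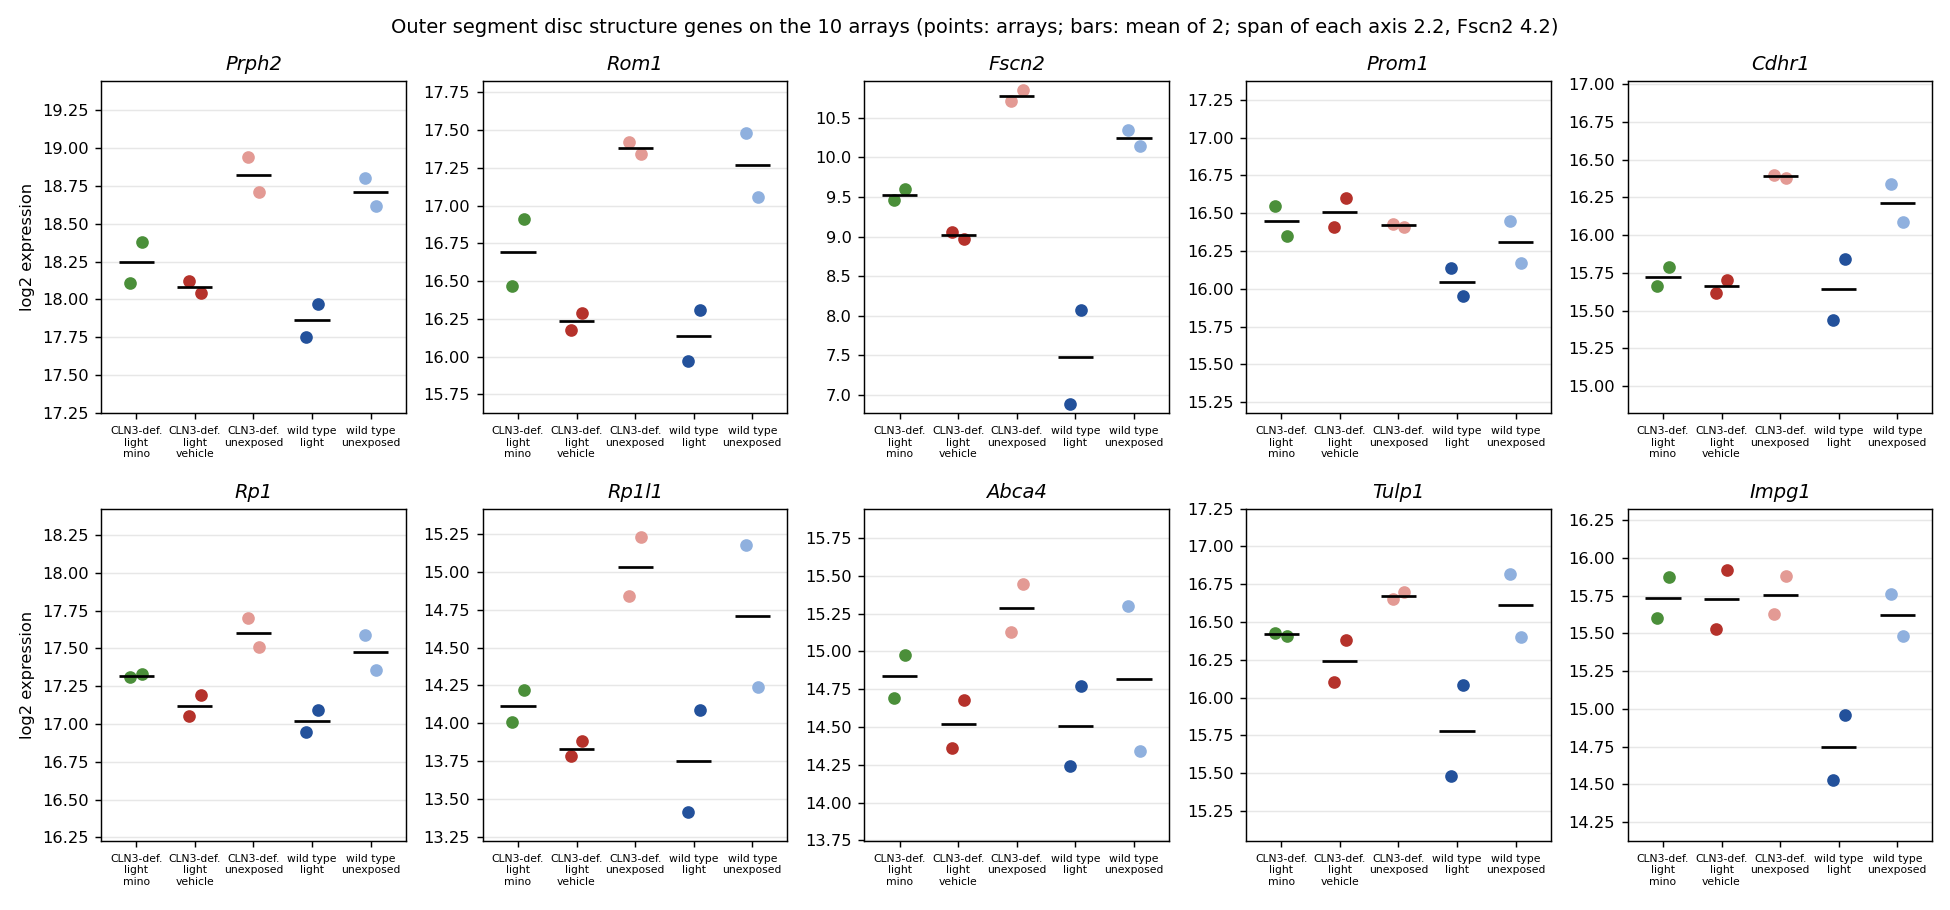
Log2 expression (y axis) of each disc structure gene on the 10 arrays, in the 5 groups (x axis: CLN3-deficient with light and minocycline, with light and vehicle, and unexposed, then wild type with light and unexposed). Points are arrays and bars are means of 2. All 6 light-exposed arrays lie below all 4 unexposed arrays for Prph2, Rom1, Fscn2, Cdhr1, Rp1 and Rp1l1, and Fscn2 spans 3.97 log2 units against 0.65 for Prom1.

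The tetraspanin genes Prph2 and Rom1 fell with light in both genotypes. Prph2 encodes peripherin 2, which bends the membrane of the disc rim, and Rom1 encodes its close homologue, with which it assembles. Prph2 measured 18.12 and 18.04 in vehicle-injected light-exposed CLN3-deficient retinas, against 18.94 and 18.71 in unexposed ones. In wild-type mice it measured 17.75 and 17.97 after light, against 18.80 and 18.62 without light. Every light-exposed array was below every unexposed array of either genotype. The change was -0.745 ± 0.205 (standard error of the fit, adjusted p = 0.0291) in CLN3-deficient mice and -0.85 ± 0.205 (adjusted p = 0.0122) in wild-type mice, both by limma.

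Rom1 measured 16.18 and 16.29 in vehicle-injected light-exposed CLN3-deficient retinas, against 17.42 and 17.34 in unexposed ones. Wild-type retinas had 15.97 and 16.31 after light, against 17.48 and 17.06 without light. The groups did not overlap, and light-exposed arrays of both genotypes stood about equally low. The change was -1.145 ± 0.234 (limma, adjusted p = 0.00796) in CLN3-deficient mice and -1.13 ± 0.234 (limma, adjusted p = 0.00622) in wild-type mice. Over the 10 arrays Prph2 and Rom1 had the highest correlation of any pair of the 10 genes (Pearson's r = 0.976, a description, since the arrays share the same light and genotype groups).

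Promoters of 8 of the 10 genes were found in RefSeq (GRCm38.p6), each as 300 bases, 250 before and 50 after the annotated start of the transcript. Those of Rp1 and Rp1l1 were not used here. Shown are the promoters of the tetraspanin pair Prph2 and Rom1, of Fscn2, which changed the most, and of Impg1, whose light effect differed between genotypes before correction for multiple tests. Capitals mark TAATC on either strand (GATTA where it is on the other strand), the core that photoreceptor homeobox factors of the Crx and Otx2 type bind.
Prph2, chr17:46910228-46910527, plus strand: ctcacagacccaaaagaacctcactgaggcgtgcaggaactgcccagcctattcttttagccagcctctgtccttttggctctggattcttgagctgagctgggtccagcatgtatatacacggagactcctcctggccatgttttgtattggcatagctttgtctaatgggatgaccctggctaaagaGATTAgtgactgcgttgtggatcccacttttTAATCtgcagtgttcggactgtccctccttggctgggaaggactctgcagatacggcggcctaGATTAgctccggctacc
Rom1, chr19:8929307-8929606, minus strand: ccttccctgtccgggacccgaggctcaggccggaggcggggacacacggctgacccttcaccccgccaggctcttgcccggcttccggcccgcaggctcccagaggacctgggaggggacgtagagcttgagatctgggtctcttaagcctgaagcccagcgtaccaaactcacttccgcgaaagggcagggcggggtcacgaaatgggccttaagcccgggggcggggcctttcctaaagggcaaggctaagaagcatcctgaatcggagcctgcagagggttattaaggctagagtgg
Fscn2, chr11:120361284-120361583, plus strand: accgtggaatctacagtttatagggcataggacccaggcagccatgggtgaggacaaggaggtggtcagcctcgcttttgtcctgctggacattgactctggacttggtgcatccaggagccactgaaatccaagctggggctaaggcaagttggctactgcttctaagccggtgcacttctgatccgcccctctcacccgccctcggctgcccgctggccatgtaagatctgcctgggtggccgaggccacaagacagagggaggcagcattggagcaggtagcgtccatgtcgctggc
Impg1, chr9:80465389-80465688, minus strand: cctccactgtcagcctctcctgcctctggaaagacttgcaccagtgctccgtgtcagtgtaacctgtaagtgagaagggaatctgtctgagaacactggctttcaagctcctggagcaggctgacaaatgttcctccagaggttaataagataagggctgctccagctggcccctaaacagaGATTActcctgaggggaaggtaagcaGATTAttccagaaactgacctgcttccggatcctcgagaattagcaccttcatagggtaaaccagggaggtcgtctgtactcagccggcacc

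Prph2 held 3 matches of TAATC, with first bases at -61, -30 and +34 from the start, and Impg1 held 2, at -68 and -42. The windows of Rom1 and Fscn2 held 0 matches. Whether the motif goes with the size of the light effect was not tested. Of the 8 genes with a promoter, 5 held TAATC (Abca4, Prom1, Impg1, Tulp1 and Prph2), against 24.6% of 27025 genes with a RefSeq promoter. This motif was added after the sequences had been read. The longer TAATCC, which contains TAATC, was in 1 of the 8 (Abca4, minus strand), against 8.14% of the same genes. The motif TGCTGAC of Nrl, the rod-determining factor, was in 0 of the 8, against 5.28% of genes. A match says only that these letters are in the window.

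The actin crosslinker Fscn2 changed more than any other of the 10 genes. It was also the dimmest of them, at 6.88 to 10.85, against 13.41 to 18.94 for the others. Whether log2 changes are comparable between such levels was not tested. Fscn2 encodes retinal fascin, which bundles actin filaments in the photoreceptor, where actin takes part in the start of disc formation. It measured 9.06 and 8.97 in vehicle-injected light-exposed CLN3-deficient retinas, against 10.71 and 10.85 in unexposed ones. Levels in wild-type mice were 6.88 and 8.07 after light, against 10.34 and 10.14 without light. The 2 light-exposed wild-type arrays were the lowest of the 10 and differed from each other by more than the arrays of any other group. The change was -1.765 ± 0.314 (3.40-fold lower, limma, adjusted p = 0.00438) in CLN3-deficient mice and -2.765 ± 0.314 (6.80-fold lower, limma, adjusted p = 7.88e-04) in wild-type mice. Among all 19505 genes ranked by p it was 41st in wild-type mice and 579th in CLN3-deficient mice.

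Genes of disc growth at the base of the outer segment did not move together. Cdhr1 encodes a photoreceptor cadherin at the edge of nascent discs, and Prom1 encodes prominin 1, a membrane protein of the same evaginations that binds it. Cdhr1 measured 15.62 and 15.70 in vehicle-injected light-exposed CLN3-deficient retinas, against 16.40 and 16.38 in unexposed ones. In wild-type mice it measured 15.44 and 15.84 after light, against 16.34 and 16.09 without light. All light-exposed arrays were below all unexposed arrays. Cdhr1 fell by 0.73 ± 0.209 on the log2 scale in CLN3-deficient mice (limma, adjusted p = 0.0335), and its change of -0.575 ± 0.209 in wild-type mice missed the threshold (limma, adjusted p = 0.0627).

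Prom1 measured 16.41 and 16.60 in vehicle-injected light-exposed CLN3-deficient retinas, against 16.43 and 16.41 in unexposed ones, and these ranges overlap. Its wild-type values were 16.14 and 15.95 after light, against 16.45 and 16.17 without light, which do not overlap. The change was 0.085 (95% interval -0.359 to 0.529; limma, adjusted p = 0.823) in CLN3-deficient mice and -0.265 (-0.709 to 0.179; limma, adjusted p = 0.355) in wild-type mice. Prom1 spanned the narrowest range of the 10 genes over all arrays. Its profile was also the least like the others, with r = 0.429 against the mean of the other 9 genes over the 10 arrays, and the lowest r of any pair was that of Prom1 and Cdhr1 (0.135).

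Both axonemal genes were lower after light on every array. Rp1 and Rp1l1 encode doublecortin-domain proteins that bind the microtubules of the axoneme and are needed for the orderly stacking of discs. Rp1 measured 17.05 and 17.19 in vehicle-injected light-exposed CLN3-deficient retinas, against 17.70 and 17.51 in unexposed ones. Wild-type values were 16.95 and 17.09 after light, against 17.59 and 17.36 without light. The step was small and of about the same size in both genotypes, -0.485 and -0.455, and passed the threshold only when the genotypes were averaged (-0.47 ± 0.139, limma, adjusted p = 0.0203).

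Rp1l1 measured 13.78 and 13.88 in vehicle-injected light-exposed CLN3-deficient retinas, against 14.84 and 15.23 in unexposed ones. Rp1l1 was at 13.41 and 14.09 in wild-type mice after light, against 15.18 and 14.24 without light. The lowest unexposed array, wild-type replicate 2, was 0.02 above the highest light-exposed array, which was from a minocycline-treated mouse (14.22). Rp1l1 fell by 1.205 ± 0.317 in CLN3-deficient mice (limma, adjusted p = 0.0236) and by 0.96 ± 0.317 in wild-type mice (limma, adjusted p = 0.0446).

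Transport and retinoid clearance genes had smaller or less even changes. Tulp1 encodes a tubby-like protein needed to move proteins from the inner to the outer segment. It measured 16.10 and 16.38 in vehicle-injected light-exposed CLN3-deficient retinas, against 16.65 and 16.70 in unexposed ones, and 15.48 and 16.08 in light-exposed wild-type retinas, against 16.82 and 16.40 in unexposed ones. The change was -0.435 (limma, adjusted p = 0.252) in CLN3-deficient mice, and Tulp1 fell by 0.83 ± 0.244 in wild-type mice (limma, adjusted p = 0.0287). Abca4 encodes the flippase of the disc rim that clears retinaldehyde adducts. It measured 14.36 and 14.68 in vehicle-injected light-exposed CLN3-deficient retinas, against 15.13 and 15.45 in unexposed ones, and 14.24 and 14.77 in light-exposed wild-type retinas, against 15.30 and 14.34 in unexposed ones. Its ranges overlapped in wild-type mice, where replicate 2 without light lay between the light-exposed arrays. Abca4 passed in neither genotype (-0.77, adjusted p = 0.115 in CLN3-deficient and -0.315, adjusted p = 0.482 in wild-type mice, limma).

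Impg1 had lower values after light in wild-type mice and no such step in CLN3-deficient mice. It encodes a proteoglycan of the matrix between the photoreceptors that surrounds the outer segments. It measured 15.53 and 15.92 in vehicle-injected light-exposed CLN3-deficient retinas, against 15.63 and 15.88 in unexposed ones. Among wild-type arrays it was 14.53 and 14.96 after light, against 15.76 and 15.48 without light. The 2 light-exposed wild-type arrays were the lowest of the 10, and the ranges of the other 4 groups overlapped. The change was -0.03 (95% interval -0.552 to 0.492; limma, adjusted p = 0.949) in CLN3-deficient mice, a difference whose sign depended on the scaling, and Impg1 fell by 0.875 ± 0.238 in wild-type mice (limma, adjusted p = 0.0206).

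**Figure D2:**
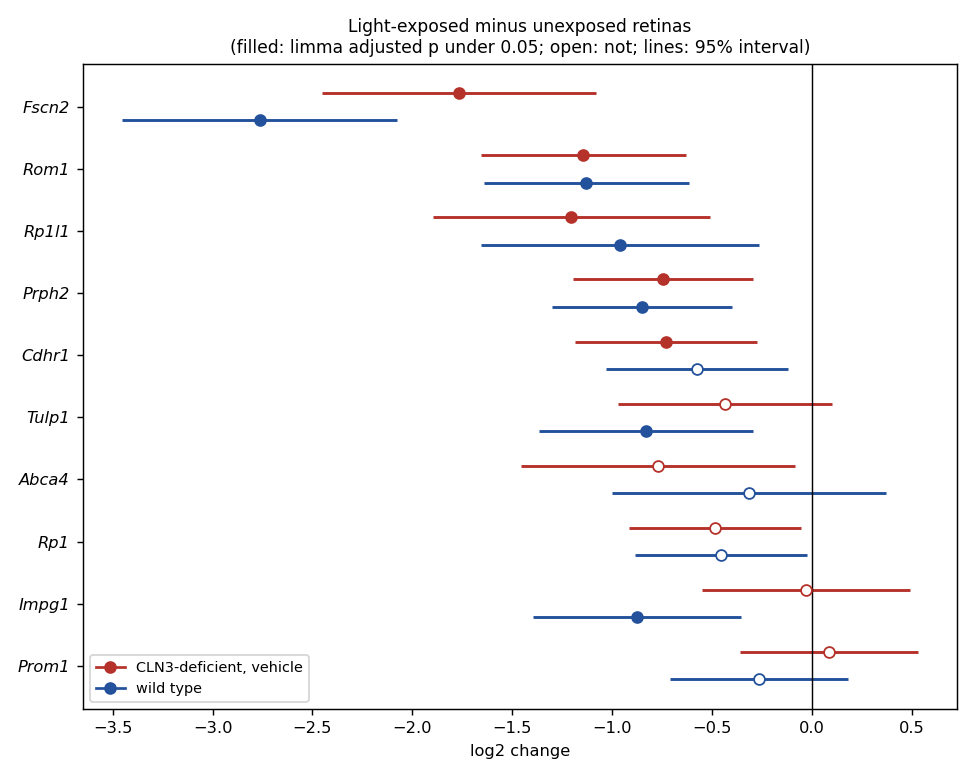
Light effect (x axis, log2 change, light-exposed minus unexposed) of each disc structure gene (y axis) in CLN3-deficient vehicle-injected mice and in wild-type mice, with 95% intervals from limma. Filled points passed an adjusted p of 0.05; Fscn2 has the most negative change in both genotypes (-1.765 and -2.765), and Prom1 and Impg1 lie close to 0 in CLN3-deficient mice.

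Counted by genotype, 5 of the 10 genes fell and 0 rose in CLN3-deficient mice (Prph2, Rom1, Fscn2, Cdhr1 and Rp1l1), where 11% of all genes fell and 6.57% rose. In wild-type mice 6 fell and 0 rose (Prph2, Rom1, Fscn2, Rp1l1, Tulp1 and Impg1), where 15.6% of all genes fell and 10.5% rose. The median change was -0.7375 in CLN3-deficient and -0.84 in wild-type mice, and over all genes it was 0.005 and 0.025. Markers of other tissues differed between the wild-type groups as well. The mean over 17 lens genes, relative to each gene's mean over the 10 arrays, was -0.501 and -0.581 in light-exposed wild-type retinas, against 0.524 and 0.879 in unexposed ones, and 7 of the 17 were called lower by limma (7 with quantile normalization or median centring, 3 with rod centring). In CLN3-deficient mice the lens mean was 0.67 and -0.272 with light and vehicle, against -0.506 and -0.838 without light, and 0 were called lower and 1 higher. The mean over 15 retinal pigment epithelium genes was 1.041 and 0.369 in light-exposed wild-type retinas, against -0.606 and 0.115 in unexposed ones, with 0 called. Their part in the light effects of the disc genes was not tested. As a count without a test, 6 disc genes had all 6 light-exposed arrays below all 4 unexposed arrays, which 16.3% of all genes had. Within wild-type mice both light-exposed arrays were below both unexposed arrays for 9 genes (all but Abca4), which 31.8% of all genes had. In each genotype the count rested on single arrays: it was 1 or 2 in CLN3-deficient mice without any 1 of their 4 arrays, and 1 without light-exposed wild-type replicate 1 and 2 without unexposed wild-type replicate 1. With a covariate for Y-linked transcripts 0 remained in CLN3-deficient mice and 2 in wild-type mice (Rom1 and Fscn2), a fit in which sex and light are separated only through the 2 minocycline arrays.

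Averaged over genotypes the changes were -2.265 ± 0.222 for Fscn2 (adjusted p = 7.94e-05), -1.1375 ± 0.166 for Rom1 (adjusted p = 4.68e-04), -1.0825 ± 0.224 for Rp1l1 (adjusted p = 0.00327) and -0.7975 ± 0.145 for Prph2 (adjusted p = 0.00161), all by limma. Cdhr1 (-0.6525), Tulp1 (-0.6325) and Rp1 (-0.47) passed with adjusted p between 0.00533 and 0.0203. Impg1 (-0.4525, adjusted p = 0.0534), Abca4 (-0.5425, adjusted p = 0.0733) and Prom1 (-0.09, adjusted p = 0.648) did not. In this average the covariate for Y-linked transcripts enters the light effects of the genotypes with opposite signs and cancels, so it could not move the estimates and its 7 calls say nothing about sex. With quantile normalization Prph2 and Rp1 lost their calls and 5 genes were called, and within each genotype 2 were (Rom1 and Fscn2).

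Rod phototransduction genes, which encode the proteins of the rod outer segment that turn light into an electrical signal, were also lower, which gives a scale from the same cell type. Of 17 measured, 12 fell and 0 rose over both genotypes, among them Guca1b, an activator of guanylate cyclase (-1.675, limma, adjusted p = 9.51e-05), and the cyclase Gucy2e (-1.262, limma, adjusted p = 5.16e-04). The mean over the 17 was -0.5868 in CLN3-deficient mice, -0.7321 in wild-type mice and -0.6594 over both. When each array was centred on that mean, Fscn2 was still lower by 1.61 ± 0.225 (limma, adjusted p = 7.45e-05) and Rom1 by 0.48 ± 0.184 (limma, adjusted p = 0.0320), where 3.66% of all genes were lower. The rod mean lay at 15.87 to 16.92 on the arrays, far above Fscn2 at 6.88 to 10.85. On this scale Prom1 was higher by 0.57 ± 0.187 (limma, adjusted p = 0.0147), as 62.6% of all genes were. The other 7 did not pass the test on this scale, with changes between -0.42 for Rp1l1 and 0.21 for Impg1. Within each genotype Fscn2 alone was called on this scale, lower by 1.18 ± 0.318 (adjusted p = 0.0152) in CLN3-deficient mice and by 2.03 ± 0.318 (adjusted p = 4.73e-04) in wild-type mice, where 1.57% and 2.15% of all genes were lower.

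Other genes of the outer segment, in a list of 25 measured genes that does not contain the 10, were less uniform. Over both genotypes 12 fell and 2 rose, with a median of -0.475. Those with the smallest p were Rdh12, a photoreceptor retinol dehydrogenase (-1.208, limma, adjusted p = 2.03e-04), and Arl3, a small GTPase of lipidated protein transport (-1.10, limma, adjusted p = 2.10e-04). In CLN3-deficient mice 9 fell and 0 rose (median -0.64), and in wild-type mice 10 fell and 0 rose (median -0.365). The rod list had 6 falls and 0 rises in CLN3-deficient mice (median -0.44) and 7 falls and 0 rises in wild-type mice (median -0.735).

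**Figure D3:**
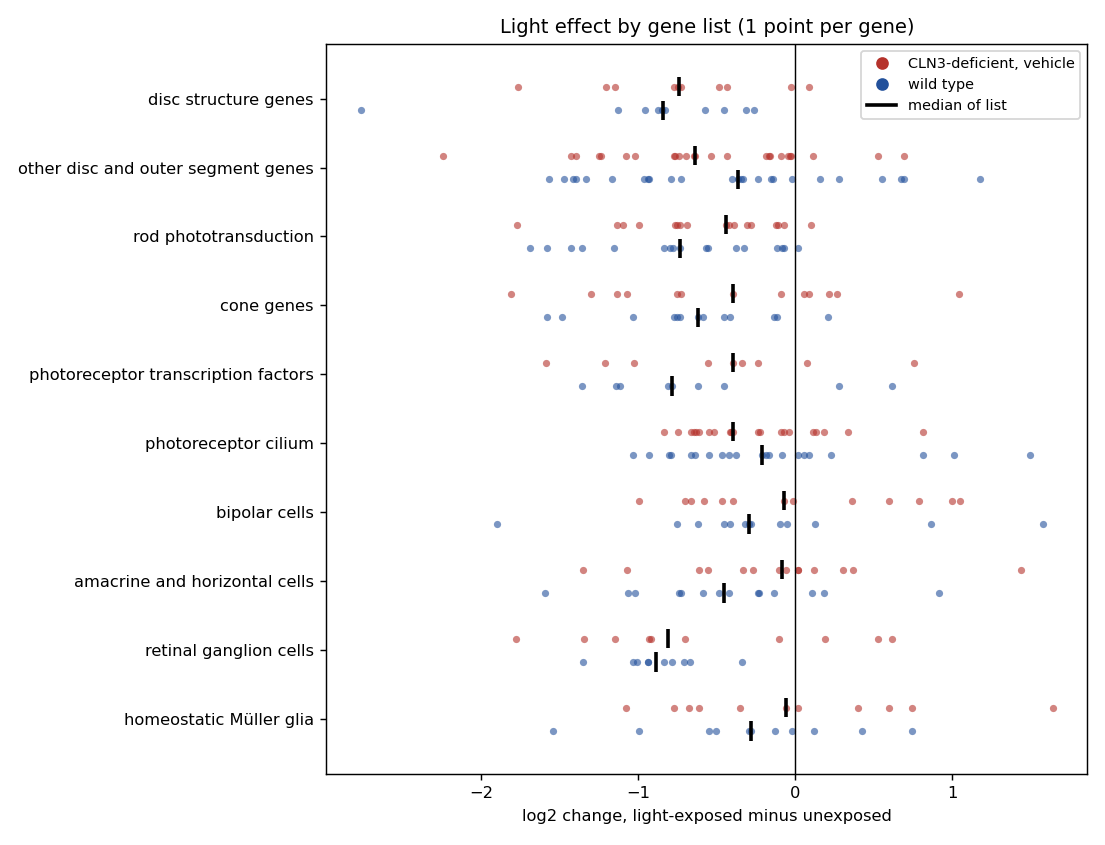
Light effect (x axis, log2 change, light-exposed minus unexposed) of every measured gene of 10 lists (y axis), 1 point per gene, in CLN3-deficient vehicle-injected and wild-type mice, with the median of each list as a bar. The medians of the disc structure genes are -0.7375 and -0.84, against -0.64 and -0.365 for other disc and outer segment genes and -0.44 and -0.735 for rod phototransduction. Those of retinal ganglion cell genes are lower, at -0.8125 and -0.885.

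Whether light acted differently in the 2 genotypes was tested as an interaction, the light effect in CLN3-deficient mice minus that in wild-type mice. No disc structure gene was called, nor was any of the 19505 genes (0% by limma after adjustment). At an unadjusted p under 0.05 limma gave 2 of the 10 genes and 11.1% of all genes, and the methods' t-test gave 0 of the 10 and 10% of all genes. The 2 were Fscn2 (1.00 ± 0.443, 95% interval 0.029 to 1.97; limma, adjusted p = 0.432) and Impg1 (0.845 ± 0.337, 95% interval 0.107 to 1.58; limma, adjusted p = 0.382), both with the smaller fall in CLN3-deficient mice. For the other 8 genes the intervals included 0. Rom1 had the difference nearest to 0 (-0.015, 95% interval -0.74 to 0.71), which was 0.865 with a covariate for Y-linked transcripts. The light doses may differ between the genotypes, and injection was given in 1 of them. The sexes are crossed with light in opposite ways. None of these can be told apart from genotype.

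After light, CLN3-deficient vehicle-injected retinas were compared with wild-type retinas directly. Only the former were injected and had Y-linked transcripts present, and the light dose may differ. Injection, sex and dose therefore cannot be told apart from genotype here. All 10 differences were positive, as were those of 9061 of all 19505 genes and of 14 of 17 rod phototransduction genes. With rod centring only Fscn2, Prom1, Tulp1 and Impg1 remained positive. With quantile normalization Cdhr1 (-0.076) and Abca4 (-0.062) were negative. Of the 10 genes 0 were called, where 0.687% of all genes were higher and 0.113% lower. At an unadjusted p under 0.05 limma gave 3 (Fscn2, Impg1 and Prom1), where 15.3% of all genes passed, and the methods' t-test gave 0, where 9.56% passed. Fscn2 averaged 9.015 ± 0.064 in CLN3-deficient and 7.475 ± 0.841 in wild-type retinas (SD, n = 2 each), a difference of 1.54 ± 0.314 that missed the threshold (limma, adjusted p = 0.0505). Impg1 averaged 15.725 ± 0.276 in CLN3-deficient and 14.745 ± 0.304 in wild-type retinas (SD, n = 2 each), a difference of 0.98 ± 0.238 (limma, adjusted p = 0.0894). Both light-exposed wild-type arrays were below both vehicle-injected arrays for 5 genes (Prph2, Fscn2, Prom1, Tulp1 and Impg1), which 20.7% of all genes had.

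Without light no disc structure gene passed the test between the genotypes. Y-linked transcripts were present only in the wild-type retinas of this comparison, so sex cannot be told apart from genotype. All 10 differences were positive, from 0.065 for Tulp1 to 0.54 for Fscn2. Positive differences were also found in 9321 of all 19505 genes and in 13 of 17 rod phototransduction genes. With rod centring only Fscn2, Rp1l1 and Abca4 remained positive. With the covariate for Y-linked transcripts Prph2 (-0.155), Rom1 (-0.33) and Impg1 (-0.135) were negative. Of the 10 genes 0 passed (limma, adjusted p = 0.997 for each), where 0.0461% of all genes were called. At an unadjusted p under 0.05 limma gave 0, where 4.35% of all genes passed, and the methods' t-test gave 1 (Fscn2), where 4.84% passed. Fscn2 measured 10.71 and 10.85 in unexposed CLN3-deficient retinas, against 10.34 and 10.14 in unexposed wild-type retinas, without overlap. Cdhr1 did not overlap either, at 16.40 and 16.38 in CLN3-deficient retinas, against 16.34 and 16.09 in wild-type retinas. Both CLN3-deficient arrays were thus above both wild-type arrays for 2 of the 10 genes, which 15.6% of all genes had. The other 8 genes overlapped between the genotypes. Without wild-type replicate 2 the difference of Abca4 was -0.01, against 0.47 with it. The lens list had a mean of -0.506 and -0.838 in unexposed CLN3-deficient retinas, against 0.524 and 0.879 in unexposed wild-type retinas, and 0 of its 17 genes were called by limma (9 at an unadjusted p under 0.05).

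No disc structure gene passed the test with minocycline after light, and 9 of the 10 means were higher with it. Of the 10 genes 0 were called in light plus minocycline against light plus vehicle, where 0.0154% of all genes (3 of 19505, all lower) were called. Limma gave 0 at an unadjusted p under 0.05, where 6.55% of all genes passed, and the methods' t-test gave 1 (Fscn2), where 5.14% passed. The median difference was 0.19, against 0.005 over all genes, of which 9862 of 19505 had positive differences. Other photoreceptor lists were higher with minocycline too. Positive were 16 of 17 rod phototransduction genes (mean 0.2088) and 22 of 25 other outer segment genes. With rod centring only Rom1, Fscn2, Rp1l1 and Abca4 of the 10 genes remained positive. Y-linked transcripts were present in both vehicle arrays but low in minocycline replicate 2. With a covariate for them Impg1 was -0.125 and Prom1 0.045, and Fscn2 and Rom1 were 0.445 and 0.235. Both minocycline arrays were above both vehicle arrays for 6 genes (Rom1, Fscn2, Rp1, Rp1l1, Abca4 and Tulp1), which 17.9% of all genes had.

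The largest differences were in Fscn2 and Rom1. Fscn2 measured 9.46 and 9.60 with minocycline, against 9.06 and 8.97 with vehicle, a difference of 0.515 (95% interval -0.171 to 1.20; limma, adjusted p = 0.866). Rom1 measured 16.47 and 16.91 with minocycline, against 16.18 and 16.29 with vehicle, a difference of 0.455 (95% interval -0.057 to 0.967; limma, adjusted p = 0.811). These intervals include no difference as well as a 2-fold difference for Fscn2. Abca4 measured 14.69 and 14.98 with minocycline, against 14.36 and 14.68 with vehicle, so that its groups were 0.01 apart. Rp1l1 measured 14.01 and 14.22 with minocycline, against 13.78 and 13.88 with vehicle.

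The remaining genes were close to each other in the 2 injected groups. Prph2 measured 18.11 and 18.38 with minocycline, against 18.12 and 18.04 with vehicle, and the groups overlapped. Tulp1 (16.43 and 16.41 with minocycline, against 16.10 and 16.38 with vehicle) and Rp1 (17.31 and 17.33 with minocycline, against 17.05 and 17.19 with vehicle) were higher by 0.18 and 0.20. Cdhr1, Prom1 and Impg1 differed by 0.065, -0.055 and 0.01. Minocycline replicate 2 had a mean over 15 retinal pigment epithelium genes of 2.354, against -0.149 in replicate 1 and -0.965 and -0.459 with vehicle, relative to each gene's mean over the 10 arrays. All 15 of those genes had positive differences with minocycline (median 1.89), of which 0 were called by limma and 11 had an unadjusted p under 0.05. Their part in the values of the disc genes was not tested.

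Set against the same 2 unexposed CLN3-deficient arrays, light with minocycline gave 1 fall among the 10 genes, Fscn2 (-1.25 ± 0.314, limma, adjusted p = 0.0288), where 6.74% of all genes fell and 3.77% rose. Rp1l1 (-0.92, adjusted p = 0.0891), Rom1 (-0.69, adjusted p = 0.0847), Cdhr1 (-0.665, adjusted p = 0.0653) and Prph2 (-0.58, adjusted p = 0.0966) did not pass in limma. With vehicle the same contrasts were -1.205, -1.145, -0.73 and -0.745, and all 4 passed. Since the 2 contrasts share their unexposed arrays, the difference between them is the one tested above, with 0 calls. Both minocycline arrays were below both unexposed arrays for 8 genes, as both vehicle arrays were, which 30.8% and 32.7% of all genes had. The call of Fscn2 was lost without any 1 of the 4 arrays.

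**Figure D4:**
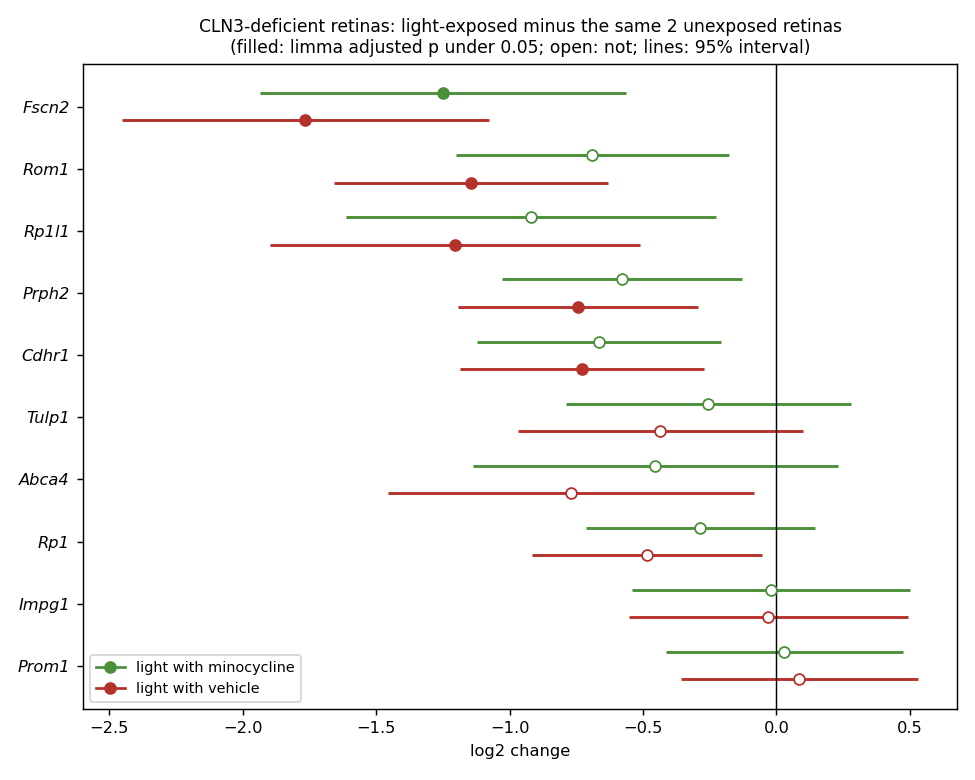
Light effect in CLN3-deficient mice (x axis, log2 change) of each disc structure gene (y axis) with minocycline and with vehicle, each against the same 2 unexposed retinas, with 95% intervals from limma. Filled points passed an adjusted p of 0.05; with minocycline only Fscn2 did (-1.25), and for Fscn2 and Rom1 the minocycline value lies nearer to 0 than the vehicle value, within the overlapping intervals.

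Averaged over the 10 genes, all 6 light-exposed arrays lay below all 4 unexposed arrays. Fscn2, with the widest range, weighs most in this average, since genes were not scaled to equal spread. Relative to each gene's mean over the 10 arrays, the mean was -0.073 and 0.082 with light and minocycline, -0.281 and -0.137 with light and vehicle, and 0.483 and 0.544 without light in CLN3-deficient mice. In wild-type mice it was -0.823 and -0.389 after light, against 0.504 and 0.088 without light. Unexposed wild-type replicate 2, at 0.088, was nearest to the light-exposed arrays, with minocycline replicate 2 at 0.082. The rod phototransduction mean was 0.006 on that array, against 0.46 in its replicate. The reactive glia list had its highest means in the vehicle and light-exposed wild-type arrays (0.667 to 1.006), where the disc genes were low, and 8 of its 12 genes rose with light over both genotypes, led by Lcn2 (5.327, limma, adjusted p = 1.64e-04), a secreted iron carrier of reactive glia. The part of glial or immune RNA in the lower disc values was not tested. Unexposed CLN3-deficient replicate 1 had a mean of 3.032 over 6 skeletal muscle genes, against -0.446 in replicate 2, and its disc gene mean was close to that of its replicate.

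**Figure D5:**
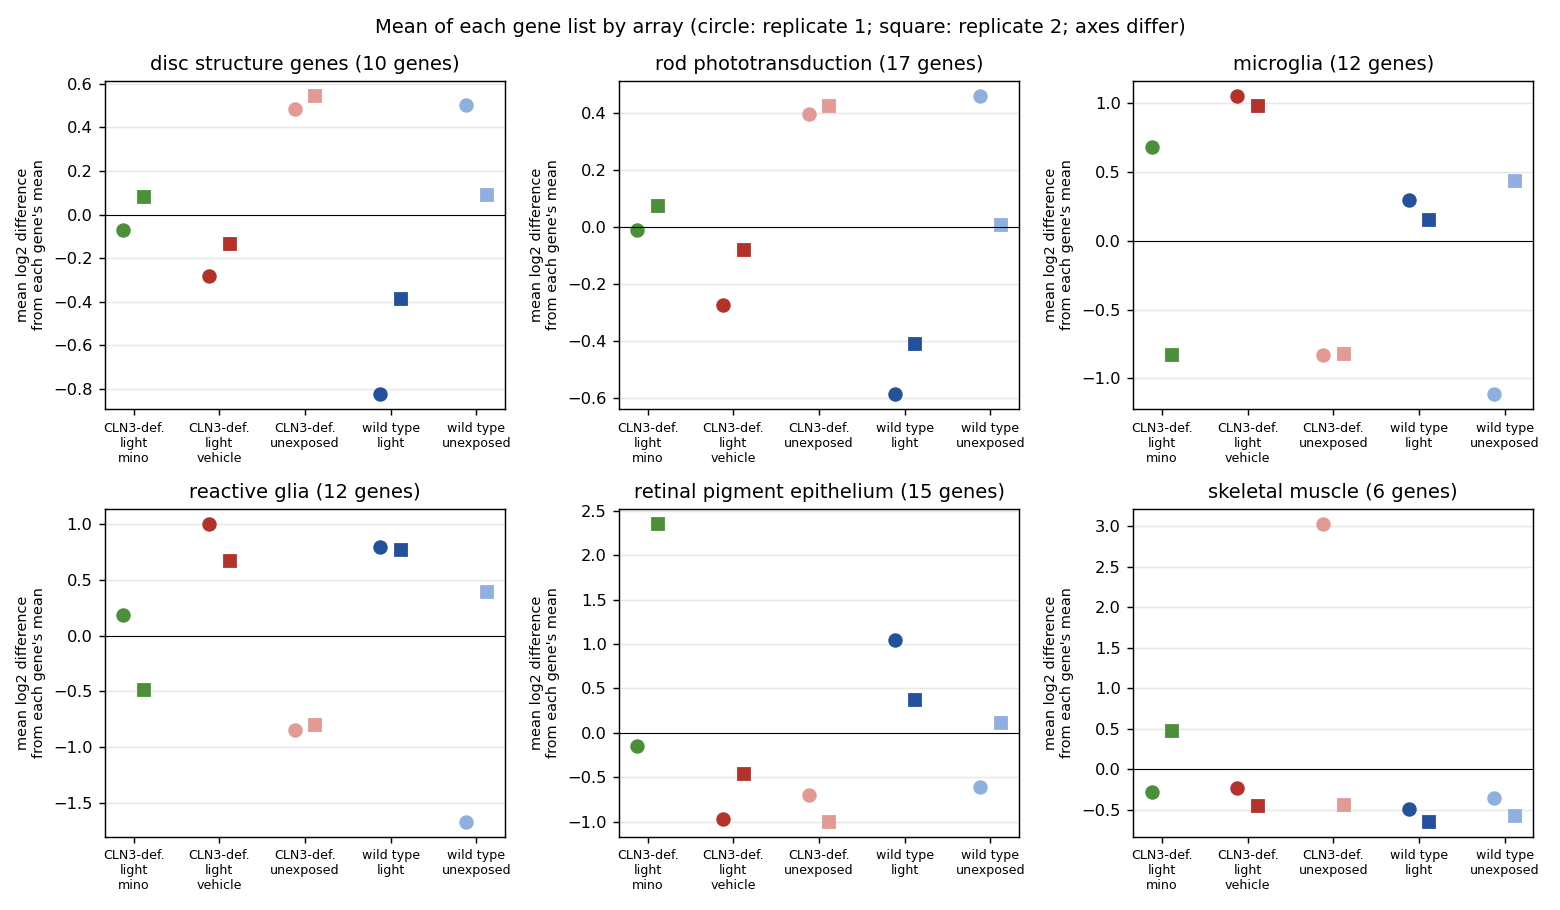
Mean over each of 6 gene lists by array (y axis, log2 difference from each gene's mean over the 10 arrays; y axes differ) in the 5 groups (x axis), with replicate 1 as a circle and replicate 2 as a square. The disc structure and rod phototransduction means run in parallel, from -0.823 to 0.544 for the disc genes, while minocycline replicate 2 stands at 2.354 for retinal pigment epithelium and unexposed CLN3-deficient replicate 1 at 3.032 for skeletal muscle.

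The 10 genes varied together to different degrees. Each gene's correlation with the mean of the other 9 over the 10 arrays was 0.954 for Tulp1, 0.948 for Rp1, 0.941 for Fscn2, 0.931 for both Prph2 and Rom1, 0.914 for Rp1l1 and 0.894 for Cdhr1. It was lower for Abca4 (0.794), Impg1 (0.731) and Prom1 (0.429). These are descriptions over arrays that share the same groups. Genes were not scaled to equal spread. Fscn2, with the widest range (3.97 log2 units), therefore weighs most in the means that include it, also in the mean profile of the 10 genes. Among 9742 other genes with a mean above that of the median gene, 318 had an r over 0.9 with the mean profile of the 10 genes. The 5 highest were Pacsin2, a membrane-bending protein (r = 0.987), Pla2g7, a secreted phospholipase (r = 0.983), Pcmtd2 (r = 0.981), Gucy2e (r = 0.981) and Rab43, a small GTPase of vesicle traffic (r = 0.980), all over 10 arrays. Pacsin2 changed with light by -1.165 in CLN3-deficient and -1.40 in wild-type mice (over both, limma, adjusted p = 2.32e-04).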

How the data were processed

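Total retinal RNA was measured on 10 Affymetrix arrays, 2 per group. Per the labels, Affymetrix Expression Console made the deposited values, which are log2 expression levels of transcript clusters. Its version and normalization method are not given here. The labels name Clariom S arrays and the methods another Affymetrix array; the transcript clusters are those of Clariom S. The values ran from 2.7 to 19.5, with no read depth to give, so the number of arrays limits the precision (median standard error of a light effect 0.24). Of 22206 transcript clusters 19572 had 1 gene symbol in the platform's annotation, 0 had several and 2634 were not listed. The cluster with the highest mean stood for a gene (55 genes had several, none of the 10), which left 19505 genes.

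The log2 values were fitted with limma 3.58.1 (R 4.3.3; lmFit, then eBayes with no trend) with a mean for each of the 5 groups, and p was adjusted by Benjamini-Hochberg over all genes with a threshold of 0.05. No filter or further normalization was applied. The fit was tested on simulated data. The methods give a threshold of a log2 change of at least 2 and an unadjusted p under 0.05, and name an unpaired t-test in general but no test for the arrays; both were alternatives. Other alternatives were quantile normalization, centring each array on its median or on its mean over the rod phototransduction list, a test without the dimmest 30% of genes, robust eBayes with a trend, only the groups compared, every transcript cluster, a log2 change of at least 1, Y-linked transcripts as a covariate, and leaving out each array.

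The 10 genes and 16 lists of 219 entries were chosen with earlier results of these data known; 20 entries found no symbol in the table and were not analysed here. Named were the 10 genes, the 2 genes of each list with the smallest p for light over both genotypes, and the 5 genes most like the mean profile of the 10. Promoters came from RefSeq (GRCm38.p6). Python 3.11.15 and pandas 2.3.3 were used for the tables. Sample labels gave the groups, and replicate numbers only name arrays.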

Additional observations from a re-analysis of the deposited data

Results flagged for a closer look

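The light effect of Fscn2 was smaller in CLN3-deficient than in wild-type mice by 1.0 on the log2 scale (-1.765 against -2.765; limma, unadjusted p = 0.0444, adjusted p = 0.432), and the difference did not pass the correction over 19505 genes. Leaving out light-exposed wild-type replicate 1, the array on which Fscn2 was lowest, gave 0.405, and leaving out replicate 2 gave 1.595. The light effect of Impg1 was smaller in CLN3-deficient than in wild-type mice by 0.845 (-0.03 against -0.875; limma, unadjusted p = 0.0283, adjusted p = 0.382), which also failed the correction, and it ranged from 0.63 to 1.06 with 1 array left out. For Fscn2 and Impg1 the unadjusted p by limma was 0.0588 and 0.0691 with quantile normalization and 0.0761 and 0.0789 with rod centring. With the covariate for Y-linked transcripts it was 0.234 and 0.095. Light dose may differ between the genotypes, and dose, injection and sex cannot be told apart from genotype here.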

How the results depend on the processing

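Over both genotypes Fscn2 and Rom1 kept their fall under all 17 alternatives that were run for single genes, of which the covariate cancels in this average and could not move it. The count of 7 genes called over both genotypes was 3 with arrays centred on the rod phototransduction mean (2 lower, 1 higher), 3 with a log2 change of at least 1 and 1 with at least 2, and 5 to 9 with 1 array left out. In CLN3-deficient mice the count of 5 was 2 with quantile normalization, 1 with rod centring, 0 with Y-linked transcripts as a covariate, 0 with the methods' t-test, which called 8 of 19505 genes (5 at an unadjusted p, as were 23.9% of all genes), 3 with a log2 change of at least 1, 0 with at least 2, and 1 to 2 with 1 array left out. In wild-type mice the count of 6 was 2 with quantile normalization, 1 with rod centring, 2 with the covariate, 0 with the t-test, which called 0 genes in all (2 at an unadjusted p, as were 18.6% of all genes), 2 with a log2 change of at least 1, 1 with at least 2, and 1 to 7 with 1 array left out. For light with minocycline the count of 1 was 0 with quantile normalization, rod centring, the covariate, the t-test and a log2 change of at least 2, was 2 without the 30% of genes with the lowest means and 2 with only the groups compared, 4 with trend and robust, and 0 to 0 with 1 array left out. For the genotypes after light the count of 0 was 1 without the lowest genes, 2 with trend and robust, and 0 to 1 with 1 array left out. No count changed for minocycline against vehicle, for the interaction or for the genotypes without light. Some values of single genes changed sign, in every comparison. For minocycline against vehicle and between the genotypes, the effect of rod centring on signs is given above. Light effects that changed sign follow. With rod centring these were, over both genotypes, Prom1 0.57, Cdhr1 0.0069, Rp1 0.19, Abca4 0.12, Tulp1 0.027 and Impg1 0.21, in CLN3-deficient mice Impg1 0.56, Rp1 0.10 and Tulp1 0.15, and in wild-type mice Prom1 0.47, Cdhr1 0.16, Rp1 0.28 and Abca4 0.42. Prom1 over both genotypes was 0.032 with quantile normalization. In CLN3-deficient mice Impg1 was 0.066 with quantile normalization, 0.02 with median centring, 0.24 with the covariate and -0.225 to 0.165 with 1 array left out (0.095 without unexposed replicate 2), and Prom1 was -0.115 with the covariate and -0.01 to 0.18 with 1 array left out. With 1 array left out Abca4 was -0.795 to 0.165 for light in wild-type mice and -0.01 to 0.95 between the unexposed genotypes. For light with minocycline, rod centring gave Rp1 0.093, Tulp1 0.12 and Impg1 0.36. Impg1 there was 0.084 with quantile normalization and 0.115 with the covariate, which gave Prom1 -0.07. In the interaction rod centring gave Prph2 -0.040, and the covariate gave Prom1 -0.05. Rom1 (0.865), Rp1l1 (0.175), Abca4 (0.125), Cdhr1 (0.105) and Rp1 (0.01) were positive there with the covariate and negative without it. The causes were not tested. Rod centring moved the median of all genes to 0.592 in CLN3-deficient and 0.757 in wild-type mice, and median centring to 0.055 and 0.12. The share of lower among all called genes was 62.7%, 51.8% with quantile normalization and 56.5% with median centring in CLN3-deficient mice, 59.8%, 51.7% and 48.6% in wild-type mice, 57.8%, 52.8% and 48.5% over both, and 64.1%, 49.7% and 53.6% for light with minocycline. No paired analysis was possible because the labels give the replicates no shared numbers.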

Other observations

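Transcription factors that set the photoreceptor program were measured beside the disc genes. Of 9, 6 fell and 1 rose with light over both genotypes (median -0.5625). Nrl, the factor that fixes rod identity, fell by 1.59 on the log2 scale in CLN3-deficient and by 1.36 in wild-type mice (limma, adjusted p = 0.00449 and 0.00645). Prdm1, a repressor that steers precursors to photoreceptors, measured -0.555 in CLN3-deficient mice (adjusted p = 0.142) and fell by 1.115 in wild-type mice (limma, adjusted p = 0.00781). Of 13 cone genes 6 fell and 0 rose over both genotypes, among them Kcne2, a potassium channel subunit (-1.647, limma, adjusted p = 2.09e-04), and Gnat2, the cone transducin (-0.88, limma, adjusted p = 6.28e-04).

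Genes of the photoreceptor cilium, through which disc proteins travel, moved in both directions. Of 21, 8 fell and 3 rose over both genotypes (median -0.305), and the 2 with the smallest p went opposite ways: Iqcb1, a protein of the transition zone, rose by 1.153 (limma, adjusted p = 4.21e-04) and Ift20, a subunit of the intraflagellar transport complex, fell by 0.67 (limma, adjusted p = 0.00244). The falls were not limited to photoreceptor lists. Of 10 retinal ganglion cell genes 6 fell and 0 rose over both genotypes (median -0.8138), among them the glutamate transporter Slc17a6 (-1.357, limma, adjusted p = 2.72e-04) and the neurofilament Nefh (-1.347, limma, adjusted p = 4.44e-04).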
